A study of Danio rerio with 3 samples.

Results

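Cells of the adult zebrafish kidney that carried both a *gata2a:GFP* and a *runx1:mCherry* signal (*gata2a*+ *runx1*+, called double positive) were compared with cells that carried *gata2a:GFP* alone (*gata2a*+ *runx1*-, called single positive), gene by gene, by RNA-seq. The comparison covers 9421 of the 32057 genes listed, namely those with at least 5 RPM in either library, where RPM are the reads of a gene scaled to 1000000 reads on all genes. Both populations were sorted from the low side scatter fraction of kidney marrow after erythrocytes had been lysed, from adult fish whose genotype is given as wild type apart from the reporters. The GFP line is *Tg(gata2a:GFP)*, which by the study's account also marks various blood cells and vascular endothelium, and the mCherry line uses an enhancer of mouse *Runx1*, so that neither signal is a direct readout of the fish gene. The labels call *gata2a*+ *runx1*+ cells hematopoietic stem cells (HSCs) and *gata2a*+ *runx1*- cells progenitors primed for lymphoid fates. Each population is 1 library, and how many fish or cells went into it is not given in the sources used here. A library from *gata2a*- *runx1*+ cells was also made and is not used here.

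In teleost fish the kidney marrow does the work of mammalian bone marrow: it holds HSCs, the progenitors of all blood lineages, B cells that make antibody in place, and a stroma of vessels and mesenchymal cells. HSCs are held by a network of transcription factors, among them Gata2, Tal1, Lmo2, Runx1, Meis1, and Gfi1, and by signals through the receptors Kit and Cxcr4. As cells commit, other factors take over, such as Gata1 and Klf1 in red cells, Spi1 and Irf8 in myeloid cells, and Pax5 and Ebf1 in B cells, which then express immunoglobulin chains and expand the endoplasmic reticulum (ER) when they secrete antibody.

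The double positive library held 8123636 reads on genes and the single positive library held 8094670, with at least 1 read on 16352 and on 16337 genes. At this depth 3 reads, the floor used for detection, correspond to 0.369 RPM in double positive cells and 0.371 RPM in single positive cells. A ratio is given with its exact 95% binomial interval. Copies made by PCR are not independent molecules, so these intervals and floors describe the counting of reads and nothing else. With 1 library per population there is no replicate check and no p-value, and every difference below is a difference between these libraries. In sorted bulk RNA, fewer cells of a type and less RNA per cell cannot be told apart.

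The gates were first set against the genes behind them. *gata2a* (ENSDARG00000059327) was read in both populations, at 344 RPM (95% Wilson interval 332 to 357) in double positive cells and 1354 RPM (1329 to 1380) in single positive cells, 3.93-fold lower in double positive cells (3.77 to 4.10). *runx1* (ENSDARG00000087646) stayed under the 5 RPM minimum in both, at 4.80 RPM in double positive cells and 2.35 RPM in single positive cells. It was 2.05-fold higher in double positive cells, with a wide interval of 1.15 to 3.75.

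A gene was called higher or lower when the ratio of RPM + 1 passed 2-fold, that is when log2((RPM + 1)/(RPM + 1)) of double positive over single positive cells was above 1 or below -1. By this rule 1603 genes were higher in double positive cells (17.0% of the 9421) and 1791 were lower (19.0%), while 6027 lay within 2-fold. The higher genes took 11.9% of all reads in double positive cells against 4.0% in single positive cells. The lower genes took 5.06% of the reads in double positive cells against 18.2% in single positive cells. The lower side also reached further: 113 genes were over 16-fold lower and 52 over 16-fold higher. The median log2 ratio of all 9421 genes was 0.07, with quartiles of -0.69 and 0.70, and Pearson's r of log2(RPM + 1) across these genes was 0.771, given as a description since genes are not replicates.

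**Figure D1:**
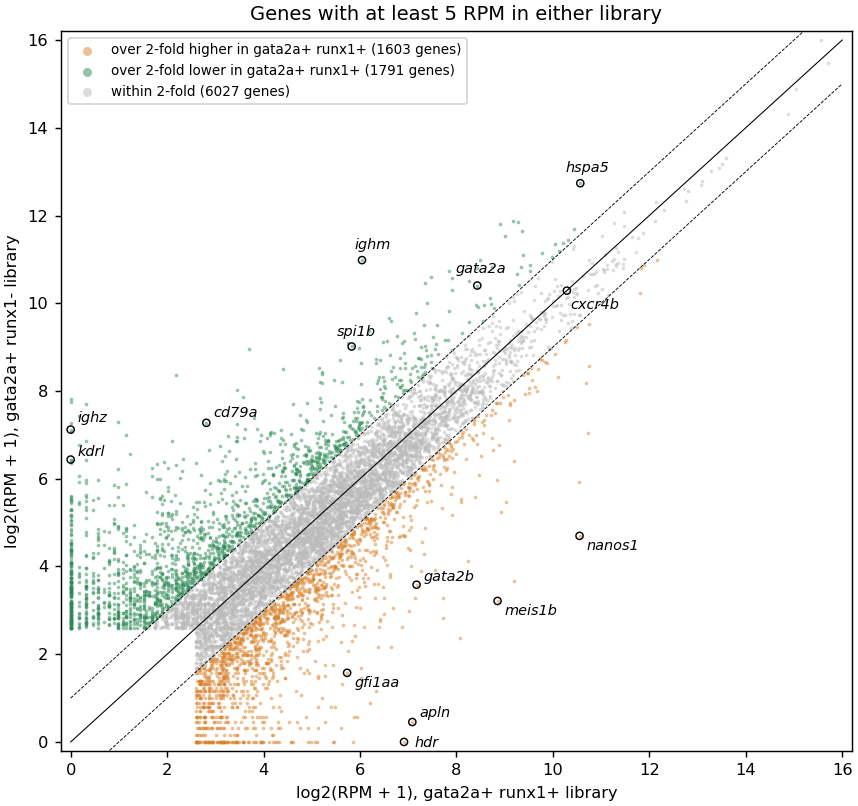
Each point is 1 of the 9421 genes, with log2(RPM + 1) in double positive cells on the x axis and in single positive cells on the y axis; the solid line marks equal levels and the dashed lines the 2-fold limits. The 1603 higher genes (orange) lie below the lines with *meis1b* and *nanos1* among the farthest, and the 1791 lower genes (green) lie above them, with *kdrl* and *ighz* at 0 in double positive cells.

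The minimum of 5 RPM matters for how these counts are read. A gene without a read in one library that reaches 5 RPM in the other is always past 2-fold, and this held for 181 genes unread in double positive cells and 90 genes unread in single positive cells. Of the 9421 genes, 7168 reached 5 RPM in both libraries, of which 812 were higher in double positive cells (11.3%) and 827 lower (11.5%), a background chosen after the data were seen. The share called fell with level, to 11.7% higher and 15.7% lower among genes of 100 RPM or more in their higher library. At the edge itself, 448 genes had between 5 and 6 RPM in their higher library, such as *SCNM1* at 5.05 RPM in double positive cells and 3.83 RPM in single positive cells. Just outside it were 617 genes between 4 and 5 RPM, such as *rbms1b* at 1.85 RPM in double positive cells and 4.94 RPM in single positive cells.

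The genes farthest apart in favour of double positive cells mixed stem cell, red cell, and signaling genes. *hdr*, the hematopoietic death receptor, was at 119.5 RPM in double positive cells with no read in single positive cells. Against the floor of 3 reads it was at least 322.5-fold higher. *apln*, the ligand of the apelin receptor, had 135 RPM in double positive cells against 0.37 RPM (3 reads) in single positive cells, a ratio of 364 whose interval runs from 124 to 1766. The most abundant of the group was *nanos1*, which encodes an RNA-binding repressor of translation, with 1502 RPM in double positive cells and 24.9 RPM in single positive cells (60.2-fold higher, 52.4 to 69.5). *FGFRL1*, a decoy-like receptor for fibroblast growth factors, was next in abundance, at 581 RPM in double positive cells and 11.7 RPM in single positive cells (49.5-fold higher, 40.4 to 61.3). The other 11 of the 15 genes with the largest ratio were *EEF1A1*, *SLC4A1*, *meis1b*, *CCDC85A*, *rhag*, *crispld1a*, *dsc2l*, *CASK*, *C1H3orf70*, *spi2*, and *OLFM2*. Of these *EEF1A1*, an elongation factor gene with close copies that reads may not separate, *CCDC85A*, *rhag*, and *OLFM2* had no read in single positive cells.

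In the other direction, 5 of the 15 genes with the largest ratio were immunoglobulin genes. *igl4v8*, a light chain variable gene, had 2 reads (0.25 RPM) in double positive cells and 208 RPM in single positive cells, a ratio of 846 (234 to 6992). *linc-iglc3*, a noncoding transcript named after the light chain locus, led the list with no read in double positive cells and 225 RPM in single positive cells, at least 608-fold lower in double positive cells. *kdrl*, the endothelial receptor for vascular endothelial growth factor, was also unread in double positive cells. It was at 85.6 RPM in single positive cells, at least 231.8-fold lower in double positive cells. *cd37*, a tetraspanin of leukocytes, had 1 read in double positive cells and 65.5 RPM in single positive cells. The others were *igic1s1*, *ighz*, *igl3c3*, *igl4c1*, *plaat1l*, *cobll1a*, *MFSD4A*, *krt94*, and 3 genes with clone names, *si:dkey-24p1.1*, *si:ch73-380l3.2*, and *si:zfos-1069f5.1*.

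Transcription factors of stem cells were mostly higher in double positive cells. Of 39 listed genes, 27 reached 5 RPM in either library, and 21 of these were called higher and 4 lower, with a median log2 ratio of 1.58 against 0.07 over all genes. Among the 23 that reached 5 RPM in both libraries, 18 were higher and 3 lower. Summed over the 39 genes, these factors made up 4981 RPM in double positive cells and 1728 RPM in single positive cells. Of these sums *FLI1* alone gave 1489 RPM in double positive cells and 60.2 RPM in single positive cells. Most of the higher genes stand in the study's own table of selected genes from these data, and several were picked by the study to mark double positive cells. These genes, *gata2b*, *gfi1aa*, *meis1b*, *runx1t1*, *tal1*, *zfpm1*, *sox4a*, *lmo2*, *myb*, *myca*, *egr1*, and *fosb*, are no independent evidence of direction.

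The widest gap belonged to *meis1b* (ENSDARG00000012078), a homeobox partner of Hox proteins, with 461 RPM (447 to 476) in double positive cells against 8.28 RPM (6.52 to 10.5) in single positive cells, 55.7-fold higher (43.8 to 72.1). Its paralog *meis1a* went the other way, with no read in double positive cells and 9.39 RPM in single positive cells. The Ets factor gene *FLI1*, which acts in blood and endothelium alike, was at 1489 RPM in double positive cells and 60.2 RPM in single positive cells, 24.8-fold higher (22.6 to 27.2). *gata2b* (ENSDARG00000009094), the *gata2* copy tied to stem cell formation in zebrafish, had 143 RPM (135 to 152) in double positive cells and 11 RPM (8.94 to 13.5) in single positive cells. The 2 *gata2* copies thus differed in opposite directions, *gata2b* 13-fold higher (10.5 to 16.4) and *gata2a* 3.93-fold lower in double positive cells. The repressor gene *gfi1aa* (ENSDARG00000020746) had 52.2 RPM in double positive cells and 1.98 RPM in single positive cells, 26.4-fold higher (16.1 to 46.6). A second member of its family, listed as *GFI1*, was instead 3.02-fold lower (2.80 to 3.27), at 105.5 RPM in double positive cells and 319 RPM in single positive cells.

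Several genes that act with *tal1* were higher, as was *tal1*, while *cbfa2t3*, a corepressor gene of the same complex, lay within 2-fold. *tal1* had 457 RPM in double positive cells and 61.9 RPM in single positive cells, 7.38-fold higher (6.73 to 8.12). The bridging factor gene *lmo2* stood at 171 RPM in double positive cells and 56.6 RPM in single positive cells, and its cofactor *LDB1* at 73.9 RPM in double positive cells and 32.2 RPM in single positive cells. *zfpm1*, the GATA cofactor Fog1, was 6.93-fold higher (5.55 to 8.74). Other factors were higher as well. *runx1t1*, a corepressor gene, was 14.5-fold higher (10.8 to 19.96) and *pbx1a*, a further Hox partner, 14.1-fold higher (9.85 to 20.9). *sox4a* was 4.34-fold, *myb* 2.73-fold, *myca* 2.35-fold, and *cbfb*, the common partner of Runx proteins, 2.33-fold higher. A second *sox4* copy, listed as *SOX4* and not on the list of stem cell factors, was 2.39-fold lower (1.53 to 3.82). It had 3.57 RPM in double positive cells and 8.52 RPM in single positive cells. A copy listed as *MSI2*, an RNA-binding protein gene put on the same list, had 37.9 RPM in double positive cells and 2.35 RPM in single positive cells. Besides *meis1a* and *GFI1*, the lower genes were *nfe2*, a factor of red cells and thrombocytes, at 113.5 RPM in double positive cells and 367 RPM in single positive cells, and *ikzf2*, an Ikaros family gene, at 34.0 RPM in double positive cells and 120 RPM in single positive cells. *erg* also lay within 2-fold.

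Receptors and surface proteins of stem cells were divided. Of 23 genes, 11 reached 5 RPM in either library, with a median log2 ratio of -1.0. Among these 3 were higher and 6 lower in double positive cells, against 17.0% higher and 19.0% lower over all genes. Of the 5 at 5 RPM in both libraries, 1 was higher and 2 were lower. *kita*, the receptor for stem cell factor, had 66 reads (8.12 RPM) in double positive cells and 2 reads in single positive cells, a ratio of 32.9 (8.75 to 277). It was thus near the minimum even in the population where it was higher. *adgrg1*, an adhesion receptor, had 64.3 RPM in double positive cells and 15.3 RPM in single positive cells (4.19-fold higher, 3.44 to 5.14).

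*cxcr4b*, which holds stem cells in the niche through Cxcl12, was the most abundant receptor of the list and was level, at 1251 RPM in double positive cells and 1249 RPM in single positive cells, with an interval of the ratio from 0.975 to 1.03. The other copy, listed as *CXCR4*, was 41.1-fold lower (33.6 to 50.7), at 12.1 RPM in double positive cells and 495.5 RPM in single positive cells. The integrin gene *itga4* was 4.31-fold lower (2.82 to 6.82) and the efflux pump gene *abcg2a* 2.17-fold lower (1.53 to 3.11). *ESAM*, *robo4*, and *THBS1*, which also belong to vessels or thrombocytes, made up the rest of the lower genes. With no minimum level the median of this list was 0.08, over those of the 23 genes with a read in either library, which leaves out 3.

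Genes of DNA replication and mitosis were higher in double positive cells as a group. Of 43 genes, 37 reached the minimum, with 22 higher, none lower, and 15 within 2-fold, and a median log2 ratio of 1.12. The picture was similar among the 35 genes at 5 RPM in both libraries, with 20 higher and 0 lower. In sum they took 12293 RPM in double positive cells and 5787 RPM in single positive cells. *mki67*, the proliferation marker Ki-67, had 428 RPM in double positive cells and 121 RPM in single positive cells (3.54-fold higher, 3.29 to 3.80). *bub1*, a spindle checkpoint kinase, was 4.55-fold higher (3.90 to 5.33) and *top2a*, a topoisomerase of dividing cells, 2.94-fold higher (2.80 to 3.09). The helicase genes *mcm2*, *mcm3*, *mcm4*, *MCM6*, and *mcm7* were 2.18- to 2.83-fold higher. *pcna*, the replication clamp, was 1.77-fold higher (1.71 to 1.82) and stayed within the limit, and both copies listed as *RRM2* were slightly lower. *ccnd1*, the D cyclin that drives entry into the cycle, had 362 RPM in double positive cells and 91.1 RPM in single positive cells, 3.97-fold higher (3.66 to 4.31). It was 1 of only 4 genes at the minimum among 14 D cyclins, their kinases, and cyclin kinase inhibitors, with *cdkn1a* also higher, 1 copy of *CDKN1B* within 2-fold, and 1 copy of *CCND2* lower. The median of 0.29 became -0.56 under TMM scaling and -0.50 when scaled without the 20 top genes, so that no direction is given for that group. These scalings shifted log2 ratios over all genes by medians of only -0.055 and 0.029. The change thus rests on which of these few genes passed the minimum.

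Immediate early genes, which respond within minutes to handling or signals, showed no common direction. Of 35 genes, 29 reached the minimum, with 4 higher and 7 lower, against 17.0% higher and 19.0% lower over all genes. Their median of 0.02 changed sign under TMM scaling (-0.04) and DESeq2 size factors (-0.01). *fosb* was 3.55-fold higher (2.78 to 4.57), *FOS* 2.28-fold higher (2.18 to 2.38), and *egr1* 2.24-fold higher (2.11 to 2.37). Against these stood *klf2a* and *klf2b*, factors induced by flow and expressed in quiescent lymphocytes, 5.35-fold (3.73 to 7.87) and 4.46-fold lower (4.06 to 4.92). The 2 genes *egr1* and *fosb* also stand on the stem cell list, and the part of sample handling in their difference was not tested.

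**Figure D2:**
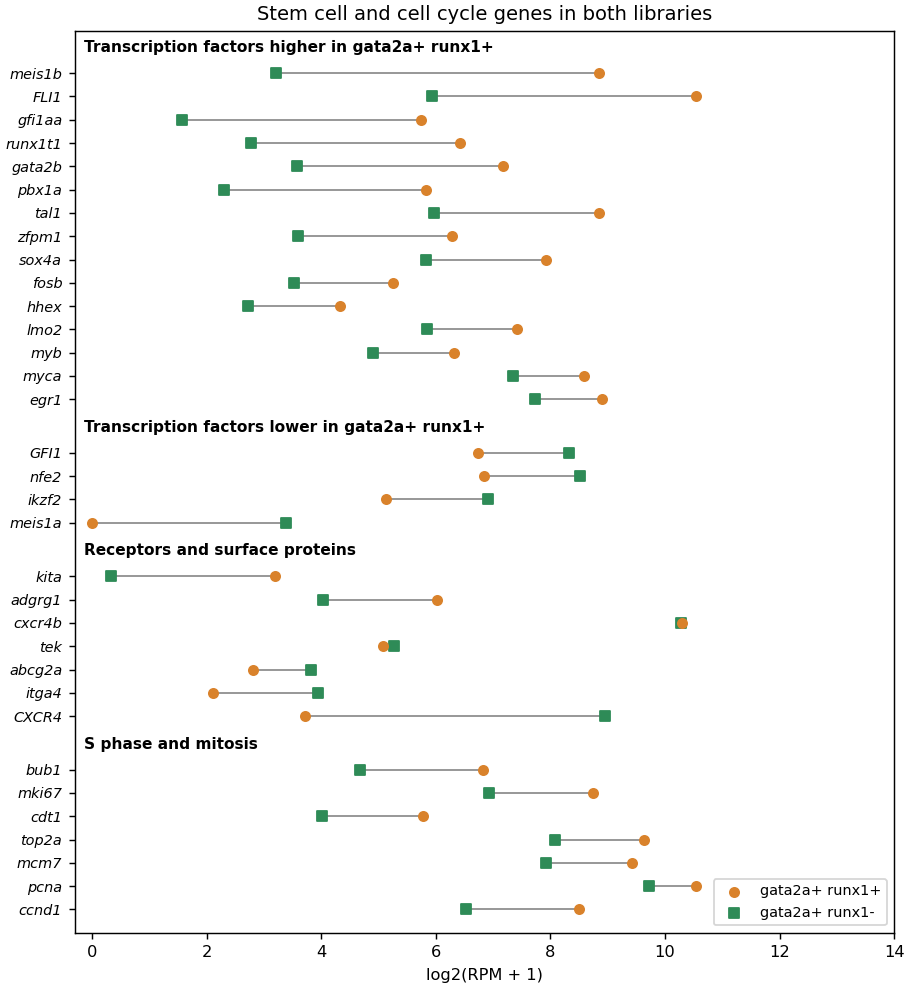
Log2(RPM + 1) (x axis) of stem cell, receptor, and cell cycle genes in double positive cells (orange circles) and single positive cells (green squares), with 1 row per gene and a grey line joining the 2 libraries. The factors of the first block are higher in double positive cells, with *meis1b* at 461 RPM against 8.28 RPM, while the symbols of *cxcr4b* coincide.

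Erythroid genes were divided. Of 37 genes, 22 reached the minimum, with 11 higher and 4 lower, against 17.0% higher and 19.0% lower over all genes. Among the 12 at 5 RPM in both libraries, however, 2 were higher and 4 lower. *SLC4A1*, the anion exchanger of the red cell membrane, had 267 RPM in double positive cells and 4.20 RPM in single positive cells (63.7-fold higher, 45.4 to 92.2). *rhag*, a gas channel of the same membrane, and *epor*, the erythropoietin receptor, were at 42.5 RPM and 32.5 RPM in double positive cells. Neither had a read in single positive cells, so they were at least 114.59-fold and 87.686-fold higher. The red cell factors *klf17* and *klf1* had 29.2 RPM and 14.2 RPM in double positive cells, against 2 reads of *klf17* and no read of *klf1* in single positive cells.

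The red cell genes *gata1a*, *hbaa1*, and *alas2* were low in both populations. *gata1a* had 40 reads (4.92 RPM) in double positive cells and none in single positive cells, *hbaa1*, an adult globin, had 5.42 RPM in double positive cells and 0.62 RPM in single positive cells, and *alas2*, the first enzyme of red cell heme synthesis, was unread in both. Heme enzymes that every cell uses were split. *uros* was 3.13-fold higher (2.38 to 4.17), whereas *urod* was 2.46-fold lower (2.2 to 2.74) and, outside heme synthesis, the carbonic anhydrase gene *cahz* was 8.42-fold lower (7.45 to 9.56). The list's median was 1.18, but it was -0.65 over the genes at 5 RPM in both libraries, and the summed level was 1017 RPM in double positive cells and 1266 RPM in single positive cells.

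Thrombocyte genes were divided. Of 24 genes, 17 reached the minimum, with a median of 0.63. Among these 6 were higher and 4 lower, against 17.0% higher and 19.0% lower over all genes. Of the 9 at 5 RPM in both libraries, 2 were higher and 2 lower, with a median of 0.02. The summed levels were close, at 995 RPM in double positive cells and 938 RPM in single positive cells. *itga2b*, the thrombocyte integrin also known as CD41, had 37.8 RPM in double positive cells and 3 reads in single positive cells, a ratio of 102.0 (34.6 to 497). *gp1bb*, part of the receptor for von Willebrand factor, was 4.88-fold higher (3.48 to 7.01), and *ptgs1*, a cyclooxygenase gene, 3.77-fold higher (3.30 to 4.31). *THBS1*, *p2ry12*, *nfe2*, and *f13a1b* were lower.

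Genes of lipid transport and breakdown were even, with 4 higher and 4 lower of 14, against 17.0% higher and 19.0% lower over all genes. Of the 9 at 5 RPM in both libraries, 1 was higher and 2 were lower. *CYP8B1*, a bile acid enzyme in mammals, had 24.99 RPM in double positive cells and 3 reads in single positive cells. *fabp3*, a fatty acid carrier, was 3.84-fold lower (3.52 to 4.18).

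Immunoglobulin genes were lower throughout in double positive cells among those measured. Of 61 genes, 28 reached 5 RPM, 27 of them only in single positive cells, and all 28 were called lower, with a median of -3.83. A gene that passes the minimum only through the library where it is high had to differ, so the sums over all 61 genes are also given. They were 574 reads (70.7 RPM) in double positive cells and 25562 reads (3158 RPM) in single positive cells, 44.7-fold lower (41.1 to 48.6). *ighm*, the heavy chain of IgM, gave most of both sums, with 64.9 RPM in double positive cells and 2023 RPM in single positive cells (31.2-fold lower, 28.6 to 34.1). *ighz*, the heavy chain of the fish mucosal isotype IgZ, had no read in double positive cells and 138 RPM in single positive cells, at least 374-fold lower. In double positive cells 50 of the 61 genes had no read, and in single positive cells 12 had none. Variable and constant segments resemble each other, so that reads may be shared among them.

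B cell genes beyond the immunoglobulins were mostly lower in double positive cells. Of 39 genes, 26 reached the minimum, with a median of -1.28. Among these 15 were lower and 3 higher, against 19.0% lower and 17.0% higher over all genes. Among the 15 genes at 5 RPM in both libraries 6 were lower and 1 higher. *pax5*, the factor that fixes B cell identity, had no read in double positive cells and 31.9 RPM (28.2 to 36.0) in single positive cells, at least 86.3-fold lower. *cd79a*, a signaling chain of the B cell receptor, was 25.5-fold lower (19.2 to 34.7), at 6.03 RPM in double positive cells and 154 RPM in single positive cells. Its partner *cd79b* had 2 reads in double positive cells and 7.41 RPM in single positive cells. The adaptor gene *blnk* was 47.1-fold lower (25.4 to 98.8), and the kinase gene *blk* was 8.19-fold lower (6.35 to 10.7). *EBF1*, a factor upstream of *pax5*, had no read in double positive cells and 5.07 RPM in single positive cells.

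Genes of the earliest lymphoid steps were less marked. *rag1*, a subunit of the recombinase, had no read in double positive cells and 32 reads (3.95 RPM) in single positive cells, whereas *rag2* had 9 reads in double positive cells and none in single positive cells. *dntt*, which adds bases at recombination joints, had no read in double positive cells and 3 reads in single positive cells, at the floor. *il7r*, the interleukin-7 receptor, was 7.71-fold lower (4.77 to 13.2). *ikzf1*, the Ikaros gene, lay within 2-fold at 506 RPM in double positive cells and 482 RPM in single positive cells. The 3 genes of the list that were higher in double positive cells were *BCL11A* (8.26-fold, 6.6 to 10.5), a copy listed as *FOXO1* (5.26-fold, 3.72 to 7.62), and a copy listed as *IRF4* (19.8-fold, 10.6 to 42.0), all transcription factor genes. The second *irf4* gene, *irf4b*, was unread in double positive cells and at 19.6 RPM in single positive cells.

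Genes of antibody secretion and ER chaperones were lower in double positive cells almost throughout. Of 38 genes, 33 reached the minimum, and 30 were lower, 1 higher, and 2 within 2-fold, with a median of -1.61. Nearly all were well measured, since 31 reached 5 RPM in both libraries, of which 29 were lower and none higher. Summed over the list, they took 8662 RPM in double positive cells and 33960.2 RPM in single positive cells, 3.92-fold lower (3.89 to 3.95). *hspa5*, the chaperone BiP, had 1518 RPM in double positive cells and 6823 RPM in single positive cells (4.50-fold lower, 4.41 to 4.59). The disulfide isomerase genes *pdia2* and *pdia4* were 7.48-fold (7.24 to 7.74) and 5.93-fold lower (5.75 to 6.11). *hsp90b1* was 4.92-fold lower (4.78 to 5.07), and the translocon genes *sec61b* and *ssr4* were 4.54-fold (3.89 to 5.31) and 4.16-fold lower (3.90 to 4.44). *xbp1*, the factor that expands the ER, was 2.52-fold lower (2.45 to 2.60). These genes serve any secreting cell and are not specific to B cells. *PRDM1*, the factor of plasma cells, had 2 reads in double positive cells and 4 reads in single positive cells, so that no difference was detectable at this depth.

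T and NK cell genes were mostly lower in double positive cells. Of 43 genes, 19 reached the minimum, with a median of -1.82. Among these 15 were lower and 1 higher, against 19.0% lower and 17.0% higher over all genes. Of the 7 at 5 RPM in both libraries 4 were lower and none higher. The sums were 444 RPM in double positive cells and 1246 RPM in single positive cells. Most of the single positive sum came from *gata3* and from the *CCR9* copy given with the chemokine receptors, so the sums do not describe the whole list. *gata3*, a factor of T cells and of other lineages, held the highest level in single positive cells among the transcription factors of the list, with 34.3 RPM in double positive cells and 369 RPM in single positive cells (10.8-fold lower, 9.51 to 12.2). The signaling genes *zap70*, *lat*, and *cd247l* had 3.45, 0.74, and 1.23 RPM in double positive cells, against 15.7, 11.4, and 15.3 RPM in single positive cells. The defining T cell genes *cd4-1* and *lck* had no read in double positive cells and 2 reads each in single positive cells, and *cd8a* had no read in double positive cells and 7 reads in single positive cells. The NK-lysin genes *nkl.3* and *nkl.4*, from the killing granules of NK-like cells, had 0 and 2 reads in double positive cells and 8.15 and 5.31 RPM in single positive cells. *EOMES*, a T-box factor gene, was the higher one, with 27.8 RPM in double positive cells and 1.98 RPM in single positive cells, 14.1-fold higher (8.48 to 25).

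Chemokine receptors, which steer blood cells between tissues, were mostly lower in double positive cells. Of 28 genes, 13 reached the minimum, with a median of -1.72. Among these 10 were lower and 1 higher, against 19.0% lower and 17.0% higher over all genes, and 2 lay within 2-fold, *cxcr4b* included. Of the 5 genes at 5 RPM in both libraries, 3 were lower. *cxcr5*, the receptor that draws B cells into follicles in mammals, and *ccr2*, that of monocytes, had 2 reads each in double positive cells, against 38.1 RPM and 25.3 RPM in single positive cells. A copy listed as *CCR9*, known for T cell homing and also on the T cell list, was 3.30-fold lower (3.12 to 3.50), at 183 RPM in double positive cells and 603 RPM in single positive cells. The higher gene was *ACKR4*, a scavenging receptor, with 6.15 RPM in double positive cells and no read in single positive cells. Genes of class II presentation gave 1 higher and 3 lower of 8, against 17.0% higher and 19.0% lower over all genes. Of the 6 at 5 RPM in both libraries, none was higher and 2 were lower. *ciita*, the master regulator of these genes, was 2.52-fold lower (2.27 to 2.79). The invariant chain gene *cd74a* was within the limit, at 1366 RPM in double positive cells and 2402 RPM in single positive cells.

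**Figure D3:**
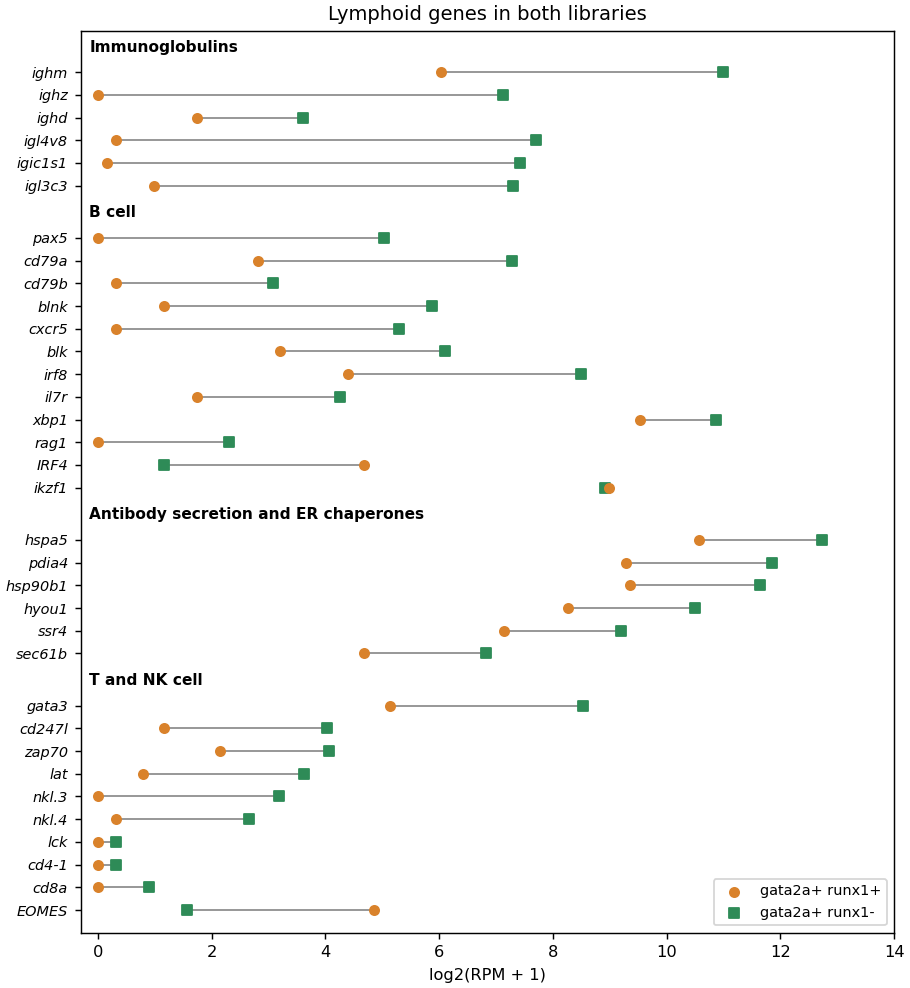
Log2(RPM + 1) (x axis) of immunoglobulin, B cell, ER, and T and NK cell genes in double positive cells (orange circles) and single positive cells (green squares), 1 row per gene, with grey lines joining the libraries. Nearly every circle lies left of its square, by the widest margin for *igl4v8* and *igic1s1*, while *IRF4* and *EOMES* lie the other way and *ikzf1* is level.

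Macrophage and dendritic cell genes were mostly lower in double positive cells. Of 56 genes, 28 reached the minimum, with a median of -1.28. Among these 15 were lower and 2 higher, against 19.0% lower and 17.0% higher over all genes. Of the 17 genes at 5 RPM in both libraries 6 were lower and 1 higher. *spi1b* (ENSDARG00000000767), the myeloid factor PU.1, had 55.8 RPM (50.9 to 61.1) in double positive cells and 516 RPM (501 to 532) in single positive cells, 9.26-fold lower (8.4 to 10.2), and its paralog *spi1a* was 4.99-fold lower (4.31 to 5.79). *irf8*, a factor of macrophages that B cells also express, was 17.9-fold lower (15.3 to 21.1), at 20.1 RPM in double positive cells and 359 RPM in single positive cells. The phagocyte genes *MPEG1* and *MRC1* had 0.74 and 1.23 RPM in double positive cells, against 16.4 and 23.0 RPM in single positive cells. The larger exception was *csf1rb*, a copy of the receptor for macrophage colony-stimulating factor, with 486 RPM in double positive cells and 36.7 RPM in single positive cells, 13.2-fold higher (11.8 to 14.9). The copy that marks zebrafish macrophages, *csf1ra*, stayed under the minimum, at 0.98 RPM in double positive cells and 3.09 RPM in single positive cells. The smaller exception was *il1b*, a gene for an inflammatory cytokine, at 5.42 RPM in double positive cells and 1.48 RPM in single positive cells. *lcp1*, an actin bundler of all leukocytes, was within 2-fold.

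Neutrophil genes were mostly lower in double positive cells. Of 28 genes, 20 reached the minimum, all in both libraries, with 11 lower, 2 higher, and a median of -1.11. Of the phagocyte oxidase, *cybb* was 9.52-fold lower (8.44 to 10.8), at 36.2 RPM in double positive cells and 344 RPM in single positive cells. *ncf1* was 3.93-fold lower (3.66 to 4.22) and *cyba* 2.73-fold lower (2.54 to 2.93), while *ncf4* lay within 2-fold. The granule gene *mpx*, myeloperoxidase, was 2.11-fold higher (1.87 to 2.37), at 105.9 RPM in double positive cells and 50.3 RPM in single positive cells, and *mmp9*, a matrix protease, was 5.10-fold higher (3.84 to 6.88). *lyz*, a defining gene of mature neutrophils and macrophages, had 1 read in double positive cells and 5 reads in single positive cells, in a gate that leaves out granulocytes. Of the short eosinophil and mast cell list, 4 of 8 genes reached the minimum and 3 were lower: *gata2a*, *fcer1gl*, and the eosinophil lectin gene *eslec*, which had 53.1 RPM in double positive cells and 546 RPM in single positive cells (10.3-fold lower, 9.32 to 11.4).

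Genes of vascular endothelium, a tissue the *gata2a:GFP* line also marks, were divided. Of 52 genes, 25 reached the minimum, with a median of -2.72. Among these 15 were lower and 4 higher, against 19.0% lower and 17.0% higher over all genes. Of the 7 at 5 RPM in both libraries, however, 3 were higher and none lower. The defining genes differed among themselves. *kdrl* and *cdh5* had 0 and 2 reads in double positive cells, against 85.6 and 14.7 RPM in single positive cells, *pecam1a* was 2.21-fold higher (1.84 to 2.67), and *tie1* and *flt1* were at or under 1.48 RPM in both populations. *plvapa*, a gene of vessel fenestrae, was 17.7-fold lower (11.4 to 28.9), and *sox18* and *egfl7* had no read in double positive cells and 13.6 and 10.3 RPM in single positive cells. *FLI1* was higher, as above, *clec14a*, a lectin gene of endothelium, was 4.16-fold higher (3.49 to 4.98), and *tek* and *erg* lay within 2-fold. The list's measures differ in sign. Its median over the genes at 5 RPM in both libraries was 0.84, and its sum was 1789 RPM in double positive cells, of which *FLI1* gave 1489, and 606 RPM in single positive cells.

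Stromal and muscle genes were lower in double positive cells with 1 exception at the minimum. Of 23 genes, 10 reached the minimum, with 9 lower, none higher, and a median of -3.18, against 19.0% lower over all genes. Only 3 of them reached 5 RPM in both libraries, of which 2 were lower and none higher. The sums over the list were 215 RPM in double positive cells and 741 RPM in single positive cells. *dcn*, the matrix proteoglycan decorin, had 1.35 RPM in double positive cells and 93.3 RPM in single positive cells (68.9-fold lower, 38.3 to 139), and the collagen gene *col1a2* was 34.8-fold lower (23.8 to 53.1). *CXCL12*, which encodes the ligand of Cxcr4, was 7.61-fold lower (6.36 to 9.18), at 16.6 RPM in double positive cells and 127 RPM in single positive cells. *pdgfra*, a receptor of mesenchymal cells, had 4 reads in double positive cells and 11.98 RPM in single positive cells.

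Renal epithelial genes differed less. Of 30 genes, 7 reached the minimum, with 3 lower and none higher, and the 4 at 5 RPM in both libraries lay within 2-fold. Over all genes 17.0% were higher and 19.0% lower. The summed level was 1275 RPM in both populations. Most of it came from *SLC20A1*, a phosphate carrier counted among the defining genes, with 690.5 RPM in double positive cells and 449 RPM in single positive cells, and from the keratin gene *krt8*, with 519 RPM in double positive cells and 689.7 RPM in single positive cells. The other defining genes *PAX2*, *pax8*, and *cdh17* were at or under 2.84 RPM in both populations. Most measured genes of the stromal, macrophage, neutrophil, and B cell lists were lower in double positive cells. At 5 RPM in both libraries 11 of 20 neutrophil, 6 of 17 macrophage, and 6 of 15 B cell genes were lower, against 11.5% of all such genes. Only 3 stromal genes were left there, of which 2 were lower. The part of a mixture of cell types within the single positive gate in any of these differences was not tested.

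**Figure D4:**
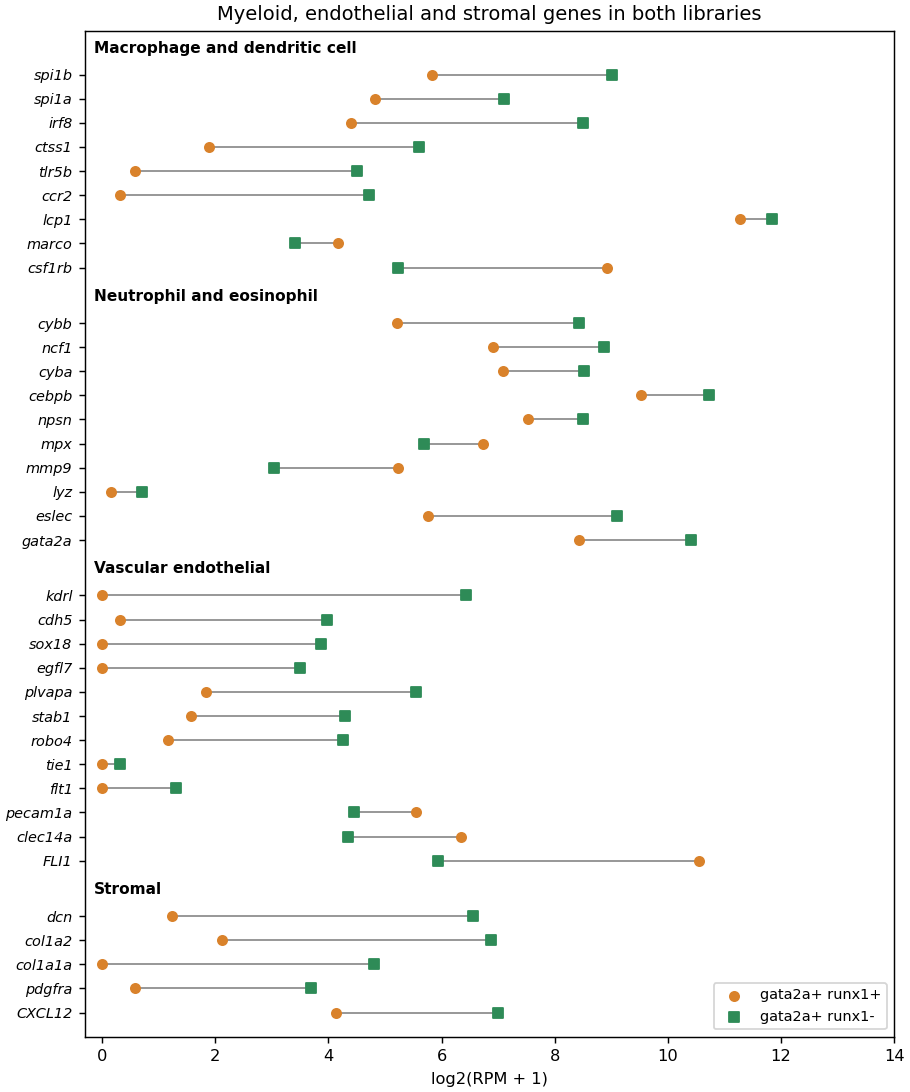
Log2(RPM + 1) (x axis) of macrophage, neutrophil, eosinophil, endothelial, and stromal genes in double positive cells (orange circles) and single positive cells (green squares), 1 row per gene, with grey lines joining the libraries. Most circles lie left of their squares, as for *kdrl* at 0 against 85.6 RPM, whereas *csf1rb*, *mpx*, *mmp9*, *clec14a*, *pecam1a*, and *FLI1* lie to the right.

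Genes that every cell uses differed less. The cytosolic ribosomal protein list was matched by name and also holds *rps6kal*, a gene of the ribosomal S6 kinase family. Of its 80 genes, 73 reached the minimum and none was called, with log2 ratios from -0.35 to 0.73 and a median of 0.19. Their sum was 88075 RPM in double positive cells and 72646 RPM in single positive cells. The respiratory chain list also holds genes of ATP synthase and of inhibitors of that enzyme. Of its 91 genes, 62 reached the minimum, with a median of -0.53. Among these 11 were lower and 2 higher, against 19.0% lower and 17.0% higher over all genes. The sums were 9971 RPM in double positive cells and 13446 RPM in single positive cells. Most of both came from the ATP synthase genes *ATP5F1A* and *ATP5F1B*. These had 2865 and 2859 RPM in double positive cells and 3467 and 4334 RPM in single positive cells. The lower genes included *NDUFS8*, a complex I subunit, at 2.09 RPM in double positive cells and 9.76 RPM in single positive cells.

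A list's share of called genes partly reflects genes that passed the minimum only through the library where they are high. The reported lists with at least 20 genes at 5 RPM in both libraries can be read against the 11.3% higher and 11.5% lower of all such genes. Stem cell factors had 18 higher and 3 lower of 23, but most of the higher ones stand in the study's own table of selected genes. S phase and mitosis genes had 20 higher and none lower of 35. The ER list had none higher and 29 lower of 31, and neutrophil genes had 2 higher and 11 lower of 20. Immediate early genes had 4 higher and 5 lower of 27. The respiratory chain and ATP synthase list had none higher and 8 lower of 50, and the ribosomal protein list had none in either direction of 72. Endothelial and erythroid genes, with fewer such genes, leaned the other way there than over all measured members. These shares are descriptions, since lists overlap, genes of a list are not replicates, and no list was tested.

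**Figure D5:**
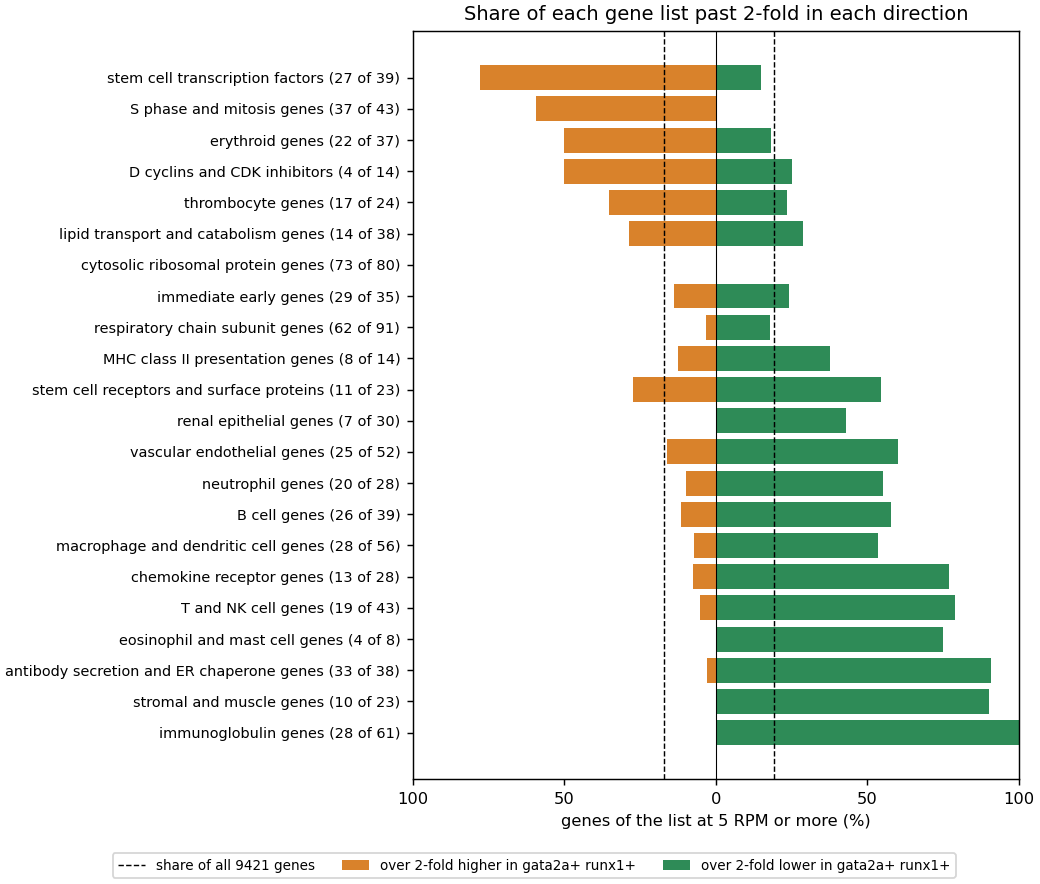
Share of the genes of each list that were over 2-fold higher (orange, to the left) or lower (green, to the right) in double positive cells, in percent of the genes at 5 RPM or more in either library; the number at the minimum and the number in the list stand beside each name, and the dashed lines mark 17.0% and 19.0% of all 9421 genes. Stem cell transcription factors stand at the top with 21 of 27 higher, most of these from the study's own table of selected genes. Immunoglobulin genes stand at the bottom with 28 of 28 lower.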

How the data were processed

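Cells were sorted into lysis buffer and their cDNA was amplified by Quartz-Seq. Per the submitters' processing notes, reads were mapped to GRCz11 with HISAT2 2.1.0 and counted with Subread 1.6.4, and the authors deposited RPM, rounded to 2 decimals. The annotation release, the use of strand, and the treatment of reads with several matches are not given in the sources used here, so genes with near-identical or overlapping copies are uncertain. Every deposited RPM value (100%, tolerance 0.0051 RPM) proved a whole number of reads, and these recovered reads stand behind the printed ratios and intervals.

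Calls used log2((RPM + 1)/(RPM + 1)) beyond 1 or -1, with a pseudocount of 1 RPM and a minimum of 5 RPM in either library. Printed folds are ratios of the reads per library total without the pseudocount, so a low gene can exceed 2-fold and not be called. Intervals are 95% Wilson (levels) and exact binomial (ratios) from scipy 1.17.1. A library without a read was set to the floor of 3 reads, and 1 to 3 reads were used as they are. A two-sided Fisher's exact test on the reads, with Benjamini-Hochberg adjustment, compared the libraries and not the populations. It called 5043 genes higher and 4926 lower of 19104 at an adjusted p under 0.05, and its p-values are not otherwise used. Alternatives were other minimums, pseudocounts, and fold limits, TMM factors of edgeR 4.0.16 and size factors of DESeq2 1.42.0 (R 4.3.3), and scaling without the 20 top genes. Scripts were tested on simulated data.

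Symbols came from a table that named 28988 of the 32057 identifiers and from the study's own gene table. Genes listed only under a human symbol are in capitals, and copies can share one. RefSeq names of another assembly served for synonyms only, so no positions are given. Named genes were the 15 with a symbol and the largest ratio in each direction, members of gene lists written from general knowledge, and genes the study names. The lists and genes were chosen with earlier results of these data known. Name patterns for the immunoglobulin and respiratory chain lists were narrowed after the data were seen, to leave out genes of other function. The *gata2a*- *runx1*+ library was not used. Some genes and 1 gene list are not reported here.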

Additional observations from a re-analysis of the deposited data

How the results depend on the processing

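With 1 library per population no replicate could be left out. No paired analysis was possible for the same reason. The count of 1603 higher and 1791 lower genes in double positive cells became 2487 and 2828 with no minimum level or with a minimum of 1 RPM, which agree because a gene past the limit exceeds 1 RPM by construction. It became 788 and 919 with a minimum of 20 RPM, 509 and 743 with a fold limit of 4, and 812 and 827 with at least 5 RPM in both libraries, an alternative chosen after the data were seen. The other counts stayed within 1.5 times, at 1491 and 1892 with TMM factors, 1541 and 1833 with DESeq2 size factors, 1944 and 2045 without the 20 top genes, and 1728 and 1872 or 1073 and 1315 with a pseudocount of 0.1 or 5 RPM. Requiring Fisher's exact test as well removed no call, but the minimum and the fold limit fix that outcome in advance, so it is no check on the calls. The median log2 ratio of all genes was 0.0080 with TMM factors, 0.041 with DESeq2 size factors, and 0.090 without the 20 top genes, against 0.072. Medians past the fold limit changed sign in 3 cases: stem cell receptors to 0.081 with no minimum, and, with 5 RPM in both libraries, endothelial genes to 0.84 and erythroid genes to -0.65, where fewer genes remain. Medians within the limit changed sign for immediate early genes (0.02) to -0.04 with TMM factors and -0.0082 with DESeq2 size factors, for D cyclins and related genes (0.29) to between -0.56 and -0.23 with TMM factors, without the 20 top genes, with no minimum, or with 1 RPM, and for renal epithelial genes (-0.41) to 0.16 with 20 RPM and 0.38 with 5 RPM in both libraries. Over 71 named genes and 5 pseudocounts or scalings, none of 355 values reversed the direction of a called gene. This outcome was fixed in advance and is no check on the calls. A pseudocount cannot change the sign of a ratio. The scalings moved log2 ratios by a median of only -0.055 to 0.029, while a called gene lies past 1 or -1. Changes of sign in genes that were not called were not counted. Depth limits genes near 3 reads, and variation between libraries of the same population is not measured.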

Other observations

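The gene families below were chosen after their values were seen, and their counts are descriptions of these libraries. More families were looked at than are shown, among them Sox genes, with 3 higher and 4 lower of 8. Over all genes 17.0% were higher and 19.0% lower, or 11.3% and 11.5% at 5 RPM in both libraries. DNA methyltransferase genes, which set or copy methyl marks on DNA, were higher in double positive cells for 6 of 7 genes, and for 4 of the 5 at 5 RPM in both libraries. A copy listed as *DNMT3B* had 210.3 RPM in double positive cells and 8.65 RPM in single positive cells (24.3-fold higher, 19.1 to 31.3), and *dnmt3ba* had 332 RPM in double positive cells and 47.3 RPM in single positive cells (7.02-fold higher, 6.31 to 7.84). The maintenance enzyme gene *DNMT1* stayed within 2-fold, at 498 RPM in double positive cells and 280 RPM in single positive cells. Of 62 Fox genes, 16 reached 5 RPM and 7 were higher and none lower (4 of 12 higher at 5 RPM in both libraries), led by *FOXP4* with 81.7 RPM in double positive cells and 3.46 RPM in single positive cells. Of 48 Hox genes, *HOXD3*, *HOXD9*, and *HOXD10*, as listed, reached 5 RPM, each in double positive cells alone, so that their common direction follows in part from the minimum. *HOXD3* was at 23.3 RPM in double positive cells and unread in single positive cells.

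Toll-like receptor genes, which sense microbial molecules, summed to 14.2 RPM in double positive cells and 279 RPM in single positive cells over 21 genes. Of these, 8 reached 5 RPM and were called lower, but only *tlr1* reached it in both libraries. A gene that passes through 1 library alone can only be higher in that library. *tlr19.2* had 1.23 RPM in double positive cells and 127 RPM in single positive cells (103-fold lower, 55.9 to 216), and *tlr8b* had 0.98 RPM in double positive cells and 55.2 RPM in single positive cells. Interleukin receptor genes were lower for 9 of 12, but for 2 of the 5 at 5 RPM in both libraries, with *il21r.1* at 2.83 RPM in double positive cells and 82.2 RPM in single positive cells. *il10ra* was the higher one, at 202 RPM in double positive cells and 67.7 RPM in single positive cells. Receptors for sphingosine-1-phosphate, a lipid that guides blood cells out of tissues, differed in opposite directions. A copy listed as *S1PR5* had 209.8 RPM in double positive cells and 6.05 RPM in single positive cells. The other copy, *s1pr5a*, went the other way, at 2.46 RPM in double positive cells and 30.1 RPM in single positive cells. *S1PR4* was also lower, with 4.06 RPM in double positive cells and 86.9 RPM in single positive cells. The 13 protein genes of the mitochondrial genome were all within 2-fold, with 1.43% of the reads in double positive cells and 1.28% in single positive cells.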
